A study of Mus musculus with 24 samples.

Results

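Excisional wounds of the back were compared with excisional wounds of the abdomen 3 days after injury, across all genes measured by RNA sequencing of whole tissue. The libraries were chosen by their labels: 4 back wounds and 4 abdomen wounds, of 24 libraries in the series. All came from CD1 mice, an outbred stock, which were 7 weeks old, had hair follicles in telogen (the resting phase) and were shaved. Each mouse was wounded at 1 site, on the back or abdomen with 2 full-thickness wounds of 2 mm, and tissue was taken with a punch of the same width. The 4 back mice and the 4 abdomen mice are therefore different animals, and the comparison is unpaired. Adjacent unwounded skin of the same 8 mice gave 4 libraries per site, and 4 cheek mice make up the rest of the series. Whether both wounds of a mouse were combined in a library is not stated in the sources used here.

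The dermis of the back derives from paraxial mesoderm, whereas that of the abdomen derives from lateral plate mesoderm. Adult skin fibroblasts are known to keep part of the transcription factor code laid down in the embryo, including Hox, T-box and Zic genes. An early wound holds a migrating epidermal edge, neutrophils, a growing population of macrophages, and fibroblasts and vessels that enter the wound bed. A full-thickness punch also takes in hair follicles, sebaceous glands, fat and the striated panniculus muscle. In whole tissue, fewer cells of a type and less RNA per cell cannot be told apart.

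Values are FPKM, the fragments of a gene relative to its transcript length and to all mapped fragments. A difference is that of the mean log2(FPKM + 0.5), back minus abdomen, with its standard error (SE) and limma's Benjamini-Hochberg adjusted p, and a gene is called where that p is under 0.05. On this scale the change of a gene with low FPKM is understated. FPKM summed to 552747 to 608888 per abdomen wound and to 555932 to 584822 per back wound, and read depth is unknown because FPKM carries no counts. Markers of skin and wound cells were present in all 8 libraries, with keratinocyte Krt14 at 2515 to 7661 FPKM, dermal Col1a1 at 2268 to 3476 FPKM, myeloid Lyz2 at 737 to 1789 FPKM, neutrophil S100a8 at 153 to 994 FPKM and endothelial Pecam1 at 43.2 to 54.0 FPKM. Across genes, log values correlated at 0.977 to 0.987 between back wounds, at 0.97 to 0.979 between abdomen wounds and at 0.971 to 0.98 between the sites.

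Abdomen wounds varied more than back wounds in several cell markers, and some libraries stood apart. Ins2, an insulin gene of the pancreas, measured 0, 310.0, 95.3 and 100.2 FPKM in abdomen wounds 1 to 4 and 0 in every back wound, and it also measured 114 and 117 FPKM in the unwounded skin of back mice 1 and 3. Wound-activated keratinocyte genes summed to 21557 FPKM in abdomen wound 1 and 3431 FPKM in abdomen wound 4, with 9347 to 14739 FPKM in back wounds. Neutrophil granule and receptor genes summed to 10976 and 3743 FPKM in the same abdomen wounds, with 6124 to 7848 FPKM in back wounds. The part of these libraries in the results was examined by leaving each one out.

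Of 14023 genes tested between back and abdomen wounds, 178 were called (1.27%), 71 of them higher in back wounds (0.506%) and 107 lower (0.763%). At an unadjusted p under 0.05 there were 2310 genes (16.5%), 935 higher (6.67%) and 1375 lower (9.81%). Under median-ratio scaling the split was 76 higher and 76 lower. The median size of a called difference was 0.603 on the log2 scale for genes called higher and 0.543 for genes called lower, and 11 and 9 genes respectively differed by at least 1. Back and abdomen libraries did not overlap for 177 of the 178 called genes, against 1285 of all tested genes (9.16%). Of the tested genes, 3.84% had all back libraries above and 5.33% all below. The exception, named after its values were seen, was Fbp2, a fructose bisphosphatase of muscle, whose back wound 3 (3.83 FPKM) lay just under abdomen wound 4 (3.84 FPKM). Calls and overlap come from the same values, so the lack of overlap is no separate support for the calls. The largest differences named below were chosen among called genes without overlap.

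The number of calls depended on single libraries. It was 285, 23, 24 and 247 without abdomen wounds 1, 2, 3 and 4, and 22, 30, 22 and 40 without back wounds 1, 2, 3 and 4. Of the genes called higher, 3 were called in all 8 of these fits (Zic1, Sfrp2 and S1pr3). Of those called lower, 12 were, and they are Hand2, Tbx3, Mab21l1, Lss, Hsd17b7, Rdh1, Rdh11, Derl3, Acoxl, C130079G13Rik, Gm13178 and Gm438. The 3 abdomen libraries with insulin transcripts could not be left out together with a usable comparison, since 1 abdomen library would remain.

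**Figure D1:**
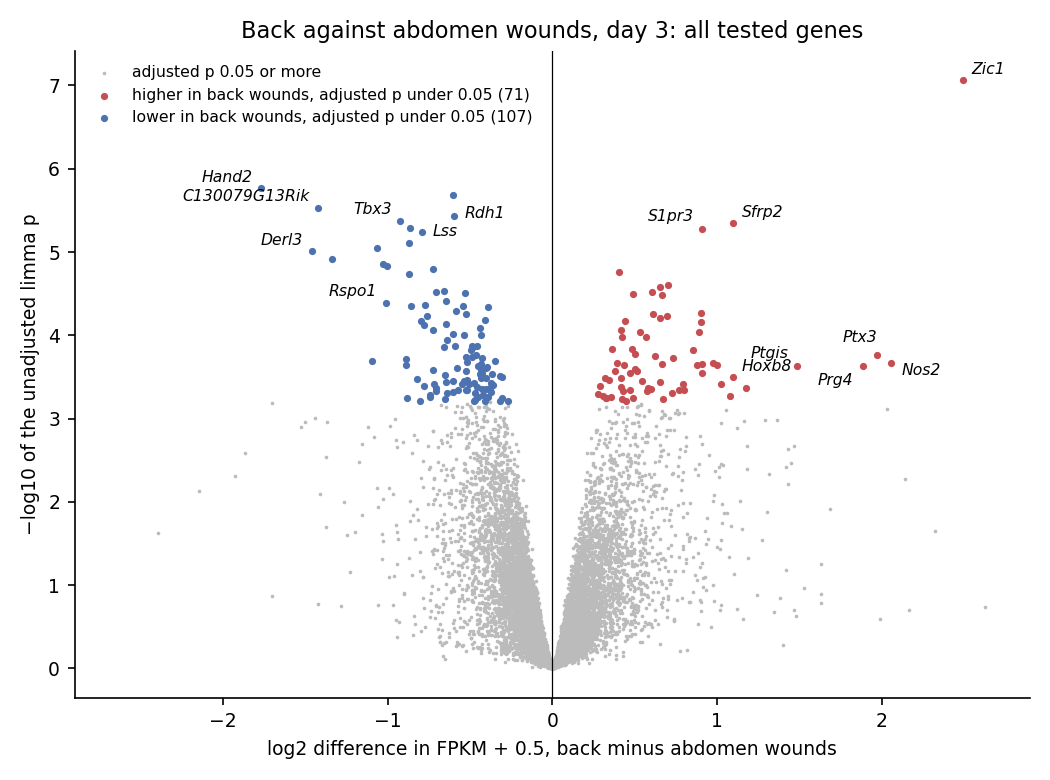
Difference of each of 14023 tested genes between back and abdomen wounds (x axis, log2 of FPKM + 0.5, back minus abdomen) against the unadjusted limma p (y axis, −log10), with 1 point per gene. The 71 red points were called higher in back wounds and the 107 blue points lower, and Zic1 (2.49) and Hand2 (-1.77) lie farthest out among them.

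Transcription factors of embryonic position held the largest called difference in each direction. Zic1 (gene ID 22771, chromosome 9, 91358058 to 91365768 in GRCm38), a zinc-finger factor of the dorsal neural tube and somites, measured 2.67, 4.34, 2 and 2.61 FPKM in back wounds 1 to 4 and 0.05, 0.22, 0 and 0.1 FPKM in abdomen wounds 1 to 4. All back libraries lay far above the abdomen libraries, which were near 0. The difference was 2.49 (SE 0.22, adjusted p = 0.00121). Unwounded back skin was higher in Zic1 too, by 3.15 (adjusted p = 3.68e-07). Zic1 was the only called gene of 9 dorsal and paraxial factors tested (1.27% of all tested genes), a list with a median difference of 0.07 against -0.03 for all tested genes. With no FPKM filter, 23 of these factors were tested, and 3 were called higher in back wounds and 0 lower.

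Factors of the lateral plate were called in the other direction. Hand2 (gene ID 15111, chromosome 8, 57320983 to 57324517), a helix-loop-helix factor of heart and limb bud, measured 0.93, 1.55, 1.48 and 1.39 FPKM in abdomen wounds and 0.08, 0, 0.03 and 0.03 FPKM in back wounds (-1.77, SE 0.21, adjusted p = 0.00799). It was at or near 0 in every back wound. Tbx5 (gene ID 21388, chromosome 5, 119796514 to 119885220), the T-box factor of forelimb and heart, measured 0.74, 1.44, 1.32 and 1.55 FPKM in abdomen wounds and 0.4, 0.07, 0.22 and 0.1 FPKM in back wounds (-1.33, SE 0.19, adjusted p = 0.0121). Its groups did not overlap, and its call held in 4 of the 8 fits without 1 library. Tbx3 (gene ID 21386, chromosome 5, 119670534 to 119684724), a T-box factor of limb and mammary gland, was detected at both sites, with 2.81, 2.31, 3.14 and 2.85 FPKM in abdomen wounds and 1.13, 1.12, 1.34 and 1.31 FPKM in back wounds (-0.92, SE 0.12, adjusted p = 0.00799). These were the 3 genes called of 15 ventral and lateral plate factors tested (1.27% of all tested genes), and the median of that list was -0.03.

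Mab21l1, a gene of eye development that was in no list, measured 0.69 to 1.37 FPKM in abdomen wounds and 0.19 to 0.26 FPKM in back wounds (-1.06, SE 0.15, adjusted p = 0.0104). Among 28 Hox genes tested, which encode position along the body axis, 1 was called (1.27% of all tested genes). Hoxb8 (gene ID 15416, chromosome 11, 96279401 to 96285325) measured 4, 3.71, 5.04 and 5.42 FPKM in back wounds and 1.23, 3.32, 1.27 and 2.03 FPKM in abdomen wounds (1.10, SE 0.22, adjusted p = 0.0406). Abdomen wound 2 came close to the lowest back wound, and the call held in 2 of the 8 fits without 1 library. The median of the Hox list was -0.22, with 8 members lower and 1 higher at an unadjusted p under 0.05 (9.81% and 6.67% of all tested genes). Msx1, a homeobox gene of limb and hair follicle, was lower in back wounds (-0.71, SE 0.15, adjusted p = 0.044), a call held in 1 of those fits. Msx1 was the only call of 14 hair follicle genes tested (1.27% of all tested genes). No gene of the hair follicle list was called with no filter, under median-ratio or quantile scaling, with other library sets or with a replicate block.

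**Figure D2:**
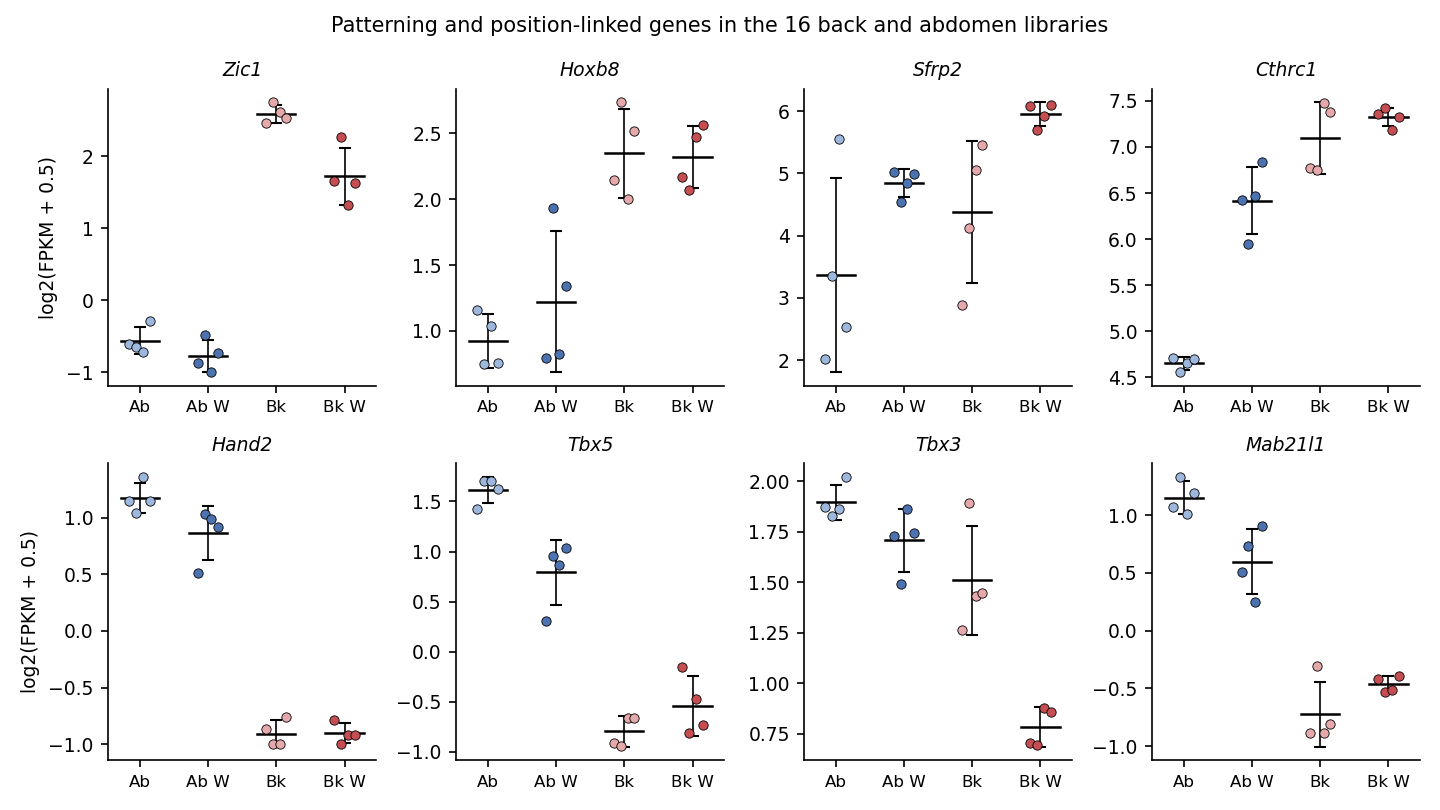
Expression of 8 genes as log2(FPKM + 0.5) (y axis) in unwounded abdomen (Ab), abdomen wounds (Ab W), unwounded back (Bk) and back wounds (Bk W), with 1 point per library, the mean as a line and the SD as error bars (n = 4). Zic1 is high in both back groups and Hand2, Tbx5 and Mab21l1 in both abdomen groups, while Tbx3 differs by -0.92 between wounds and -0.39 between unwounded sites.

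Secreted modulators of Wnt signalling, a pathway that acts on fibroblasts and hair follicles, were called in both directions. Sfrp2 (gene ID 20319, chromosome 3, 83765750 to 83774314), a secreted Wnt-binding protein of fibroblasts, measured 67.1, 51.1, 60.1 and 68.1 FPKM in back wounds and 32.1, 22.6, 28.1 and 31.4 FPKM in abdomen wounds (1.10, SE 0.14, adjusted p = 0.00799). The lowest back wound lay well above the highest abdomen wound, whereas in unwounded skin the sites overlapped, at 6.91 to 43.3 FPKM on the back and 3.54 to 46.5 FPKM on the abdomen. Rspo1, an amplifier of Wnt signalling, measured 2.96 to 3.88 FPKM in back wounds and 5.9 to 8.57 FPKM in abdomen wounds (-1.01, SE 0.16, adjusted p = 0.0194). Wnt7b, an epidermal ligand, measured 9.07 to 10.2 FPKM and 14.4 to 16.6 FPKM (-0.65, SE 0.10, adjusted p = 0.0169). The calls of Rspo1 and Wnt7b held in 3 and 4 of the 8 fits without 1 library. Sfrp2, Rspo1 and Wnt7b were the 3 called of 26 Wnt genes tested (1.27% of all tested genes), and the list's median was -0.20. Wnt2, a mesenchymal ligand, measured 4.7, 4.66, 2.71 and 4.62 FPKM in back wounds and 0.49, 0.72, 1.91 and 2.2 FPKM in abdomen wounds, without overlap and without passing the test (1.45, SE 0.40, adjusted p = 0.0955).

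Cholesterol synthesis is the pathway that builds sterols from acetyl-CoA and supplies skin with barrier lipid and sebum. Of 21 genes of the pathway tested, 7 were called lower in back wounds and none higher (0.763% and 0.506% of all tested genes). No member had a positive difference, against 6181 of all 14023 tested genes, and the median of the list was -0.41. Lss (gene ID 16987, chromosome 10, 76531565 to 76557139), lanosterol synthase, measured 25.2, 23.5, 23.6 and 20.1 FPKM in abdomen wounds and 14, 13.9, 13.1 and 11.7 FPKM in back wounds (-0.79, SE 0.10, adjusted p = 0.00799). Hsd17b7 (gene ID 15490, chromosome 1, 169949535 to 169969242), a ketoreductase of the later steps, measured 55.4, 60.0, 55.1 and 40.9 FPKM and 28.3, 33.3, 26.2 and 26.1 FPKM (-0.87, SE 0.12, adjusted p = 0.00993). For both enzymes no back wound reached the level of any abdomen wound. Hmgcs1 (gene ID 208715, chromosome 13, 119690351 to 119708260), which acts before mevalonate, measured 158, 137, 202 and 109 FPKM and 87.5, 97.8, 92.6 and 81.7 FPKM (-0.72, SE 0.15, adjusted p = 0.0424), a call held in 1 of the 8 fits without 1 library. The other 4 called enzymes of the route, named after their values were seen, were Cyp51 (-0.66), Msmo1 (-0.65), Fdps (-0.57) and Nsdhl (-0.47). Their calls held in 3, 3, 1 and 1 of the 8 fits without 1 library. Under median-ratio scaling 4 members were called lower, with a median of -0.38, and 3 were called in the fit of all 24 libraries.

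Sequence upstream of Lss, Hsd17b7 and Hmgcs1 (RefSeq, GRCm38.p6) is shown because these genes of 1 pathway were called in the same direction. It comes from windows of 250 bases before the transcript start of the promoter table and ends at the outer bound of the gene, which leaves 210 bases for Lss, 213 for Hsd17b7 and 250 for Hmgcs1. Capitals mark CCAAT on either strand (ATTGG when it lies on the opposite strand), the box bound by nuclear factor Y, and in Hmgcs1 also 1 match to TCACNCCAC, a form of the sterol regulatory element, 137 bases before the gene. The windows are chr10:76531355-76531564 (plus strand) for Lss, chr1:169969243-169969455 (minus strand) for Hsd17b7 and chr13:119690101-119690350 (plus strand) for Hmgcs1.
Lss: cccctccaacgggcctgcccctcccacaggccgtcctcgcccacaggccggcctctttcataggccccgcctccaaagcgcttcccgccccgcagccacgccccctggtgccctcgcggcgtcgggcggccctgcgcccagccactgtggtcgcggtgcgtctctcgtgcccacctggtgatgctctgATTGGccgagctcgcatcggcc
Hsd17b7: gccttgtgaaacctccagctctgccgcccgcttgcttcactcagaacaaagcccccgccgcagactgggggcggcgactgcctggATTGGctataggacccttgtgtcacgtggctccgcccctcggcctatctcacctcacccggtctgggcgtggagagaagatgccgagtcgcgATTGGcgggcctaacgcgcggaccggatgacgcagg
Hmgcs1: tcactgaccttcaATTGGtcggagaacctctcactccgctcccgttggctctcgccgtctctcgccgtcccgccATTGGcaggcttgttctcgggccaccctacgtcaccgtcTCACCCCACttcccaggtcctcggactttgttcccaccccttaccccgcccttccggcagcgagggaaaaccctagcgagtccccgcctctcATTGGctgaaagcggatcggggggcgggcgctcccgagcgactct
The printed stretches hold 1 CCAAT match for Lss, 2 for Hsd17b7 and 3 for Hmgcs1. Of the 21 tested members of the list, 14 matched the promoter table and all 14 held CCAAT in the full window of 250 bases, against 40.1% of 11144 tested genes with an entry and 33.8% of all 32851 windows. TCACNCCAC, searched on both strands, was found in 1 of the 14 and in 1.25% of those tested genes, and 1.05% of all windows. A match describes letters in the window and not binding.

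Of 20 sebaceous gland genes tested, 4 were called lower in back wounds and none higher (0.763% and 0.506% of all tested genes). At an unadjusted p under 0.05, 13 were lower and 1 higher (9.81% and 6.67% of all tested genes). A positive difference was seen in 3, against 6181 of all 14023 tested genes, and the median was -0.37. The fit of all 24 libraries called 1 of them. Dgat2l6, an acyltransferase of the gland, measured 16.9, 23.2, 25 and 20.7 FPKM in abdomen wounds and 12, 13.1, 11 and 12.7 FPKM in back wounds (-0.78, SE 0.13, adjusted p = 0.0229). Awat1, a wax synthase, measured 124 to 176 FPKM and 76.5 to 88.4 FPKM (-0.74, SE 0.16, adjusted p = 0.0469). Mgst1, a microsomal glutathione transferase, measured 328 to 444 FPKM and 234 to 259.6 FPKM (-0.60, SE 0.11, adjusted p = 0.0258). The remaining call was Fa2h, a fatty acid hydroxylase (-0.54, SE 0.09, adjusted p = 0.0194), and groups did not overlap for any of the 4 genes. The calls of Dgat2l6, Awat1 and Mgst1 each held in 2 of the 8 fits without 1 library. The list summed to 3090 to 3702 FPKM in abdomen wounds and 2457 to 2618 FPKM in back wounds, and the cholesterol list to 1511 to 2092 FPKM and 1166 to 1379 FPKM. Both sums were thus lower in every back wound, and the part of sebaceous gland content in the cholesterol values was not tested. Cidea, a lipid droplet protein, was the only gene called of 21 adipocyte genes (1.27% of all tested genes), with 99 to 139.7 FPKM in abdomen wounds and 68.6 to 73.6 FPKM in back wounds (-0.60, SE 0.12, adjusted p = 0.0419). That call held in 2 of the 8 fits without 1 library and was lost under median-ratio scaling, with no filter, with plain moderation and with all 24 libraries.

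Rdh11 and Rdh1, dehydrogenases that interconvert retinol and retinal, were among the 5 genes called lower with the smallest p. Rdh11 measured 52.4, 58, 53.4 and 46.4 FPKM in abdomen wounds and 35.6, 35.2, 32.2 and 34.3 FPKM in back wounds (-0.60, SE 0.07, adjusted p = 0.00799), and Rdh1 29.7 to 34.1 FPKM and 18.6 to 22.4 FPKM (-0.60, SE 0.08, adjusted p = 0.00799). Of 25 retinoid and xenobiotic metabolism genes tested, a list that holds neither, 1 was called (1.27% of all tested genes) and it was higher in back wounds. That gene, Abcc3, an exporter of conjugated metabolites, measured 5.25 to 5.5 FPKM in back wounds and 2.64 to 3.67 FPKM in abdomen wounds (0.67, SE 0.10, adjusted p = 0.0169). Nrg4, an EGF-family ligand, was lower in back wounds (-0.87, SE 0.13, adjusted p = 0.0136), as were Efnb1, an ephrin ligand (-0.37, SE 0.08, adjusted p = 0.0445), and Egr3, an immediate early factor (-0.52, SE 0.09, adjusted p = 0.021). These 3 calls held in 7, 2 and 3 of the 8 fits without 1 library. Efnb1 was the only call of 28 axon guidance genes (1.27% of all tested genes). No gene of that list was called with no filter, under either scaling, with plain moderation, with other library sets or with a replicate block.

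**Figure D3:**
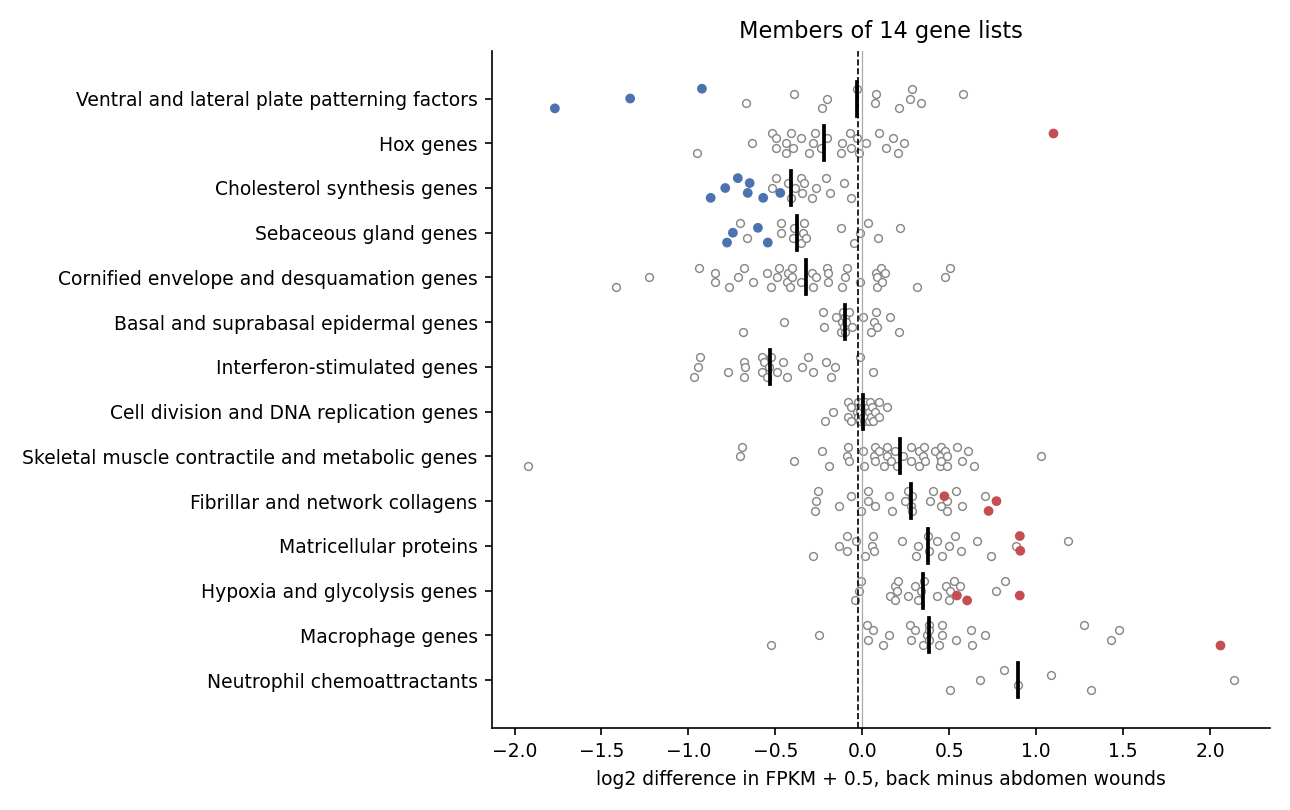
Difference between back and abdomen wounds (x axis, log2 of FPKM + 0.5, back minus abdomen) for the tested members of 14 gene lists (y axis), with 1 point per gene, filled red or blue where called, and the list median as a black bar. The dashed line is the median of all tested genes (-0.03), and the medians of cholesterol and sebaceous genes (-0.41 and -0.37) lie to its left, those of hypoxia and macrophage genes (0.35 and 0.38) to its right.

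Genes of inflammation and of the wound stroma were among the largest differences towards the back. Nos2 (gene ID 18126, chromosome 11, 78920787 to 78960226), the inducible nitric oxide synthase, measured 7.14, 10.6, 11.7 and 4.3 FPKM in back wounds and 2.8, 0.75, 1.86 and 1.19 FPKM in abdomen wounds (2.06, SE 0.39, adjusted p = 0.0363). Ptx3, a secreted pentraxin of innate immunity, measured 11.9, 10.6, 25.7 and 12.2 FPKM and 4.25, 3.68, 4.74 and 1.35 FPKM (1.97, SE 0.36, adjusted p = 0.0346). For both, every back library lay above every abdomen library, which the choice of the largest differences required. Each call held in 2 of the 8 fits without 1 library. Prg4, a lubricating proteoglycan, measured 21.6, 30.8, 25 and 16.6 FPKM in back wounds and 9.24, 7.25, 3.21 and 5.24 FPKM in abdomen wounds (1.89, SE 0.35, adjusted p = 0.0363, called in 1 of those fits). Ptgis, prostacyclin synthase, measured 14.5, 16, 17.1 and 13 FPKM and 5.2, 2.95, 6.13 and 6.82 FPKM (1.49, SE 0.28, adjusted p = 0.0363, called in 2 of those fits). Neither gene's groups overlapped, again as that choice required.

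S1pr3 (gene ID 13610, chromosome 13, 51408618 to 51422797), a receptor for sphingosine 1-phosphate, differed less but in all 8 of the fits without 1 library. It measured 8.83, 11.3, 10.3 and 9.88 FPKM in back wounds and 5.96, 4.62, 5.07 and 4.9 FPKM in abdomen wounds (0.91, SE 0.12, adjusted p = 0.00799). Hist1h2ap, a histone H2A gene, was also higher in back wounds (1.00, SE 0.19, adjusted p = 0.0363), and its reads are uncertain because the histone genes are near-identical copies. Cndp2, a cytosolic dipeptidase (0.40, SE 0.06, adjusted p = 0.0136), and Fbxo17, an F-box protein (0.70, SE 0.11, adjusted p = 0.0169), were among the 5 genes called higher with the smallest p.

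Of 26 macrophage genes tested, Nos2 alone was called. In this list 24 genes had a positive difference, 13 were higher at an unadjusted p under 0.05 (6.67% of all tested genes), and the median was 0.38. Of all 14023 tested genes, 6181 had a positive difference, with a median of -0.03. Of 18 T and NK cell genes, 7 were above 0 (median -0.06), as were 8 of 20 lymphoid chemokines and receptors (median -0.12). Limma called 0 in either of these lists, with 2 and 3 at an unadjusted p under 0.05 (16.5% of all tested genes). The macrophage list summed to 2311, 2860, 2733 and 3933 FPKM in abdomen wounds and to 4009, 3571, 3721 and 4169 FPKM in back wounds, so that abdomen wound 4 fell within the back range. Ccl6, a chemokine of myeloid cells, was the only call among 16 monocyte and macrophage chemokines and receptors, with 325, 282, 379 and 287 FPKM in back wounds and 121, 94.2, 155 and 212 FPKM in abdomen wounds (1.18, SE 0.24, adjusted p = 0.044, called in 1 of 8 fits). Mmp8, the neutrophil collagenase, was the only call among 25 neutrophil granule and receptor genes, with 3.58 to 4.38 FPKM and 1.06 to 2.1 FPKM (1.08, SE 0.23, adjusted p = 0.0474). Of that list, 4 were higher and 3 lower at an unadjusted p under 0.05 (6.67% and 9.81% of all tested genes). Cfp, properdin, which stabilises a complement convertase, was the only call among 13 complement genes (0.65, SE 0.11, adjusted p = 0.0216). The macrophage, chemokine, neutrophil and complement lists thus held 1 call each, against 1.27% of all tested genes. The calls of Mmp8 and Cfp held in 2 and 3 of the 8 fits without 1 library.

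Neutrophil chemoattractants had the highest list median of the lists without a call, 0.90. Of 7 tested, limma called 0 at the adjusted threshold, 5 were higher at an unadjusted p under 0.05 (6.67% of all tested genes), and 1 was called with quantile normalization and 1 in the fit of all 24 libraries. Cxcl2, a ligand of neutrophil receptors, measured 314, 222, 237 and 259 FPKM in back wounds and 179, 58.5, 146 and 72.5 FPKM in abdomen wounds (1.31, SE 0.37, adjusted p = 0.107). Its groups did not overlap, and abdomen wounds 2 and 4 were the lowest. Il1b, the inflammatory cytokine, measured 245, 144, 199.9 and 192 FPKM and 190.5, 68.2, 140.2 and 63.5 FPKM, with overlap (0.88, SE 0.38, adjusted p = 0.28). Limma called 0 of 22 interleukin and TNF family genes. At an unadjusted p under 0.05, 7 of these were higher and 1 lower in back wounds (6.67% and 9.81% of all tested genes).

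Interferon-stimulated genes, which answer antiviral cytokines, spread widely within each site. Of 24 tested, limma called 0, and 0 had an unadjusted p under 0.05 (16.5% of all tested genes). A positive difference was seen in 1 (median -0.53), against 6181 of all 14023 tested genes. Isg15, an antiviral ubiquitin-like protein named after its values were seen, measured 171, 15.4, 108 and 242 FPKM in abdomen wounds and 111, 43.2, 310.4 and 10.5 FPKM in back wounds. Back wounds held both the highest and the lowest value.

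Matrix genes were called in 1 direction only. Of 27 collagen genes tested 3 were called higher in back wounds and none lower (0.506% and 0.763% of all tested genes), with a median of 0.28. None was called with no filter, with plain moderation or with only the 8 back and abdomen libraries, and 2 under median-ratio or quantile scaling. Col5a3, a minor fibrillar chain, measured 71.3, 67.5, 62 and 62.8 FPKM in back wounds and 52, 26.3, 34.8 and 45.2 FPKM in abdomen wounds (0.77, SE 0.16, adjusted p = 0.044). Col14a1, a fibril-associated collagen, measured 25.2 to 34 FPKM and 14 to 23 FPKM (0.73, SE 0.15, adjusted p = 0.045), and Col6a2, a chain of microfibrillar collagen VI, 247 to 309 FPKM and 173 to 219.9 FPKM (0.47, SE 0.10, adjusted p = 0.044). None of these groups overlapped, and the calls held in 2, 1 and 2 of the 8 fits without 1 library. Col1a1, the main fibrillar collagen, measured 2497, 2268, 3048 and 3476 FPKM in back wounds and 2398, 2459.6, 2471 and 3383 FPKM in abdomen wounds and was not called (0.07, 95% confidence interval -0.41 to 0.55).

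Among 25 matricellular genes 2 were called higher and none lower (0.506% and 0.763% of all tested genes), with a median of 0.38. Cthrc1, a secreted protein of activated fibroblasts, measured 163, 171, 145 and 159.9 FPKM in back wounds and 85.5, 61.3, 87.7 and 114 FPKM in abdomen wounds (0.91, SE 0.15, adjusted p = 0.022). Wisp2, a CCN-family protein, measured 20.4 to 33.6 FPKM and 11.3 to 19.8 FPKM (0.91, SE 0.17, adjusted p = 0.0363). Of 28 small proteoglycan and elastic fibre genes, Efemp2, a fibulin of elastic fibres (0.89, SE 0.16, adjusted p = 0.0252), and Emilin2, an elastin-interface glycoprotein (0.79, SE 0.16, adjusted p = 0.0424), were called higher and none lower (0.506% and 0.763% of all tested genes). Ltbp2, a microfibril protein, was the only call among 25 BMP, TGF-beta and activin genes (0.80, SE 0.17, adjusted p = 0.0441), and Plat, tissue plasminogen activator, the only one among 16 plasminogen and serpin genes (0.50, SE 0.09, adjusted p = 0.0346). Over all tested genes, 1.27% were called. The calls of Cthrc1, Wisp2, Efemp2, Emilin2, Ltbp2 and Plat held in 3, 4, 2, 2, 1 and 3 of the 8 fits without 1 library. With a replicate block no gene of these lists was called. The BMP, TGF-beta and activin list also held no call with no filter, with plain moderation or with other library sets.

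Of 24 hypoxia and glycolysis genes tested, 3 were called higher in back wounds and none lower (0.506% and 0.763% of all tested genes). Their median was 0.35, and 15 were higher at an unadjusted p under 0.05 (6.67% of all tested genes). Groups did not overlap for 10 (9.16% of all tested genes). The fit of all 24 libraries called 1 of them. Slc16a3, the lactate exporter of glycolytic cells, measured 59.2, 52.7, 54.2 and 48.2 FPKM in back wounds and 36.6, 22.6, 31.1 and 24.9 FPKM in abdomen wounds (0.91, SE 0.15, adjusted p = 0.021). Adm, the vasodilator adrenomedullin, measured 12.6 to 15.1 FPKM and 7.95 to 10.5 FPKM (0.60, SE 0.09, adjusted p = 0.0169). P4ha1, a collagen prolyl hydroxylase subunit, measured 31.7 to 40.3 FPKM and 20.2 to 28.8 FPKM (0.54, SE 0.11, adjusted p = 0.0419). These calls held in 3, 3 and 2 of the 8 fits without 1 library. The list summed to 5968 to 6579 FPKM in back wounds and 4405 to 5100 FPKM in abdomen wounds, without overlap, while genes of skeletal muscle, which is rich in glycolytic enzymes, summed to 5579 to 7823 FPKM and 3405 to 9508 FPKM, with overlap. The part of muscle in the hypoxia list was not tested.

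**Figure D4:**
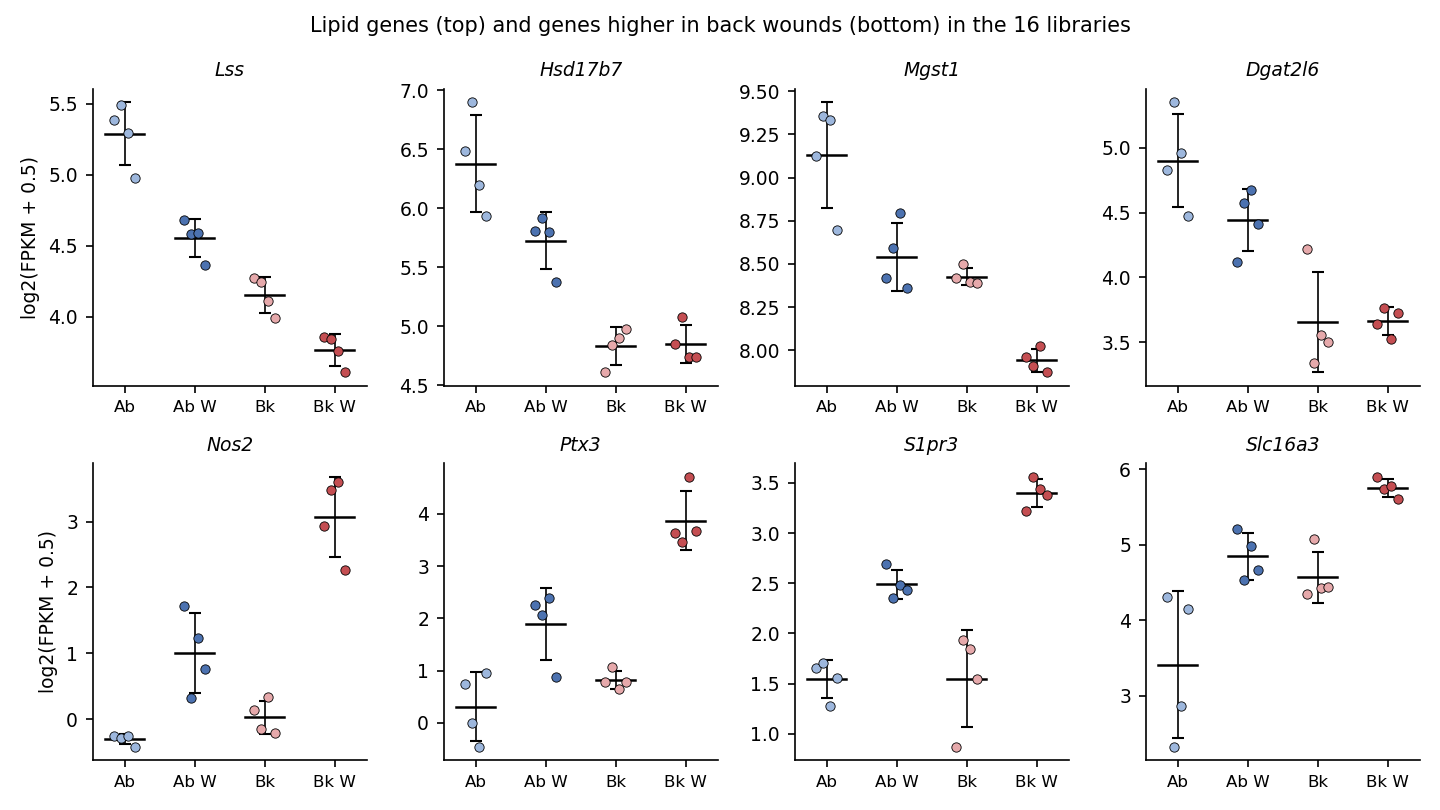
Expression of 8 genes as log2(FPKM + 0.5) (y axis) in unwounded abdomen (Ab), abdomen wounds (Ab W), unwounded back (Bk) and back wounds (Bk W), with 1 point per library, the mean as a line and the SD as error bars (n = 4). The lipid genes of the top row are lower on the back in skin and in wounds, while Nos2, Ptx3 and S1pr3 differ by 2.06, 1.97 and 0.91 in wounds and by 0.33, 0.51 and 0.003 in unwounded skin.

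Of 52 gene lists, 29 held no call, and 137 of the 178 called genes were in no list. Cell division genes had a median of 0.01, and limma called 0 of 30, with 0 at an unadjusted p under 0.05 (16.5% of all tested genes). Mki67, a proliferation marker, measured 11.9, 10.6, 8.99 and 8.16 FPKM in back wounds and 12.2, 11.1, 7.59 and 9.37 FPKM in abdomen wounds (-0.01, 95% confidence interval -0.39 to 0.36). Limma called 0 of 22 wound-activated keratinocyte genes, with 2 at an unadjusted p under 0.05. Krt6b, a keratin of migrating epidermis, measured 2892, 2894, 3543 and 1715 FPKM in back wounds and 4999, 2479, 1986 and 586 FPKM in abdomen wounds, and the sites overlapped (0.45, 95% confidence interval -0.79 to 1.70). Limma also called 0 of 42 skeletal muscle genes, 0 of 23 endothelial genes and 0 of 18 T and NK cell genes. At an unadjusted p under 0.05 there were 2, 8 and 2 of them (16.5% of all tested genes). The 8 endothelial genes were all higher in back wounds (6.67% of all tested genes). The endothelial list summed to 449 to 486 FPKM in back wounds and 400 to 444 FPKM in abdomen wounds, without overlap.

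The study discussed 28 of the tested genes from these same libraries, so their count is not independent evidence. Of these, Zic1 was called higher and Hand2, Tbx5, Tbx3 and Msx1 lower. Spp1, osteopontin, measured 392, 371, 211 and 166 FPKM in back wounds and 164, 73.5, 155 and 102 FPKM in abdomen wounds, without overlap and without passing the test (1.18, SE 0.33, adjusted p = 0.102). Sfrp4, a Wnt-binding protein, measured 27.3 to 30.4 FPKM and 11.8 to 18.9 FPKM, also without overlap (0.87, SE 0.34, adjusted p = 0.235). Gpc3, a cell-surface proteoglycan (0.66, SE 0.15, adjusted p = 0.0579), and Loxl1, an elastin crosslinking enzyme (0.38, SE 0.09, adjusted p = 0.0595), lay just outside the threshold.

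Several of the largest falls were in genes of little known function. C130079G13Rik measured 33.3, 35.4, 41.1 and 37.9 FPKM in abdomen wounds and 16.5, 13.9, 11.6 and 12.2 FPKM in back wounds (-1.42, SE 0.17, adjusted p = 0.00799). Gm13178 (-1.03, SE 0.15, adjusted p = 0.0129) and Gm438 (-1.01, SE 0.15, adjusted p = 0.0129) had no overlap between groups either, as the choice of the largest differences required. Derl3, a component of endoplasmic reticulum quality control, measured 1.73, 1.9, 2.88 and 1.04 FPKM in abdomen wounds and 0.26, 0.33, 0.32 and 0.44 FPKM in back wounds (-1.46, SE 0.20, adjusted p = 0.0104). In unwounded skin Derl3 was too low to be tested, at 0.19 to 0.52 FPKM on the abdomen and 0.05 to 0.46 FPKM on the back. Aadacl3, a relative of arylacetamide deacetylase, was lower in back wounds (-1.10, SE 0.21, adjusted p = 0.0363), a call held in 2 of the 8 fits without 1 library.

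The same contrast in unwounded skin asked which differences existed without a wound. Of 13956 genes tested there, 373 were called (2.67%), 74 higher on the back (0.53%) and 299 lower (2.14%). Median-ratio scaling moved the median of all genes from -0.116 to 0.0041 and gave 80 higher and 129 lower. Of the 106 genes called lower in back wounds that could be tested, 48 were lower in unwounded back too, which is 45.3% of them and 16.1% of the 299, and 104 had the same sign. Of the 70 genes called higher in back wounds that could be tested, 6 were higher in unwounded back, which is 8.57% of them and 8.11% of the 74, and 43 had the same sign. Signs were uneven over all genes, since 4219 of the 13956 had a positive difference in unwounded skin. Both comparisons used the same mice, so the shared calls and signs are not an independent replication. The median unwounded difference was -0.61 for the 106 genes and 0.06 for the 70. Leaving out 1 mouse moved the unwounded count to between 109 (without abdomen mouse 2) and 543 (without abdomen mouse 4).

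Position and lipid genes were among those called in both comparisons. Hand2 measured 1.56 to 2.07 FPKM in unwounded abdomen and 0 to 0.09 FPKM in unwounded back (-2.08, adjusted p = 4.02e-04), and Tbx5 2.18 to 2.77 FPKM and 0.02 to 0.13 FPKM (-2.41, adjusted p = 2.53e-05). Hsd17b7 was lower in unwounded back, at 23.9 to 31 FPKM against 60.6 to 119 FPKM (-1.55, adjusted p = 0.00148). There, 11 of 21 cholesterol genes and 5 of 20 sebaceous genes were called lower, against 2.14% of all genes tested in unwounded skin. Median-ratio scaling, which took the lower calls over all genes from 299 to 129, was not applied to these list counts. Cthrc1 measured 107 to 178 FPKM in unwounded back and 23 to 25.6 FPKM in unwounded abdomen (2.44, adjusted p = 2.20e-04). Nos2, Ptx3, S1pr3, Col5a3 and Slc16a3 did not pass the test in unwounded skin (adjusted p = 0.289, 0.364, 0.997, 0.632 and 0.158).

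**Figure D5:**
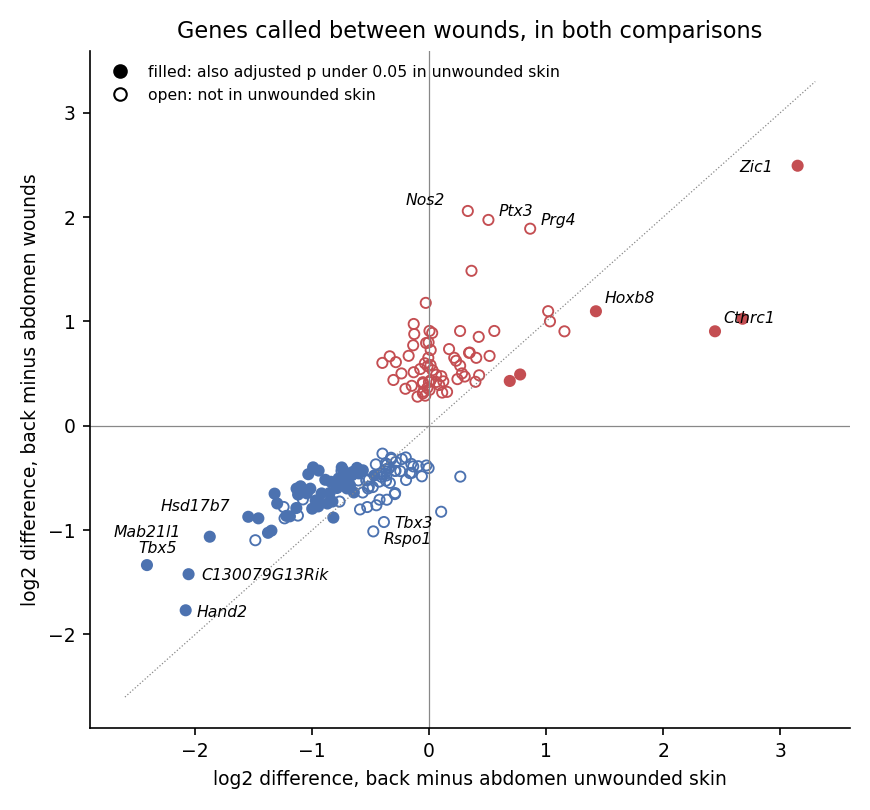
Difference between back and abdomen in wounds (y axis) against that in unwounded skin (x axis), both as log2 of FPKM + 0.5, back minus abdomen, for the genes called between wounds and tested in both (70 higher in red, 106 lower in blue). Filled points were also called in unwounded skin (6 and 48), the dotted line marks equal differences, and 104 of the 106 blue points lie below 0 on both axes.

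Whether wounding changed a gene by a different amount at the 2 sites was tested with each wound set against unwounded skin of the same mouse. Limma called 0 of 14423 genes (0%), while 2191 (15.2%) had an unadjusted p under 0.05. The count was 597 without abdomen mouse 1, 11 without abdomen mouse 4 and 2 without back mouse 1, and 3 with a pseudocount of 1 FPKM. Nos2 changed on wounding by 1.31 on the abdomen and 3.04 on the back, and the difference of 1.73 had an adjusted p of 0.0753. Tbx5 changed by -0.82 and 0.25 (difference 1.08, adjusted p = 0.0883), and Cthrc1 by 1.77 and 0.23 (difference -1.54, adjusted p = 0.0891). None of these passed the test.

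The genes with the smallest p in that test were mostly others. Crabp1, a cellular retinoic acid binding protein, measured 45.8, 32.1, 46.2 and 31 FPKM in unwounded abdomen and 23.5, 14.6, 13.3 and 11.9 FPKM in unwounded back. In wounds it reached 128, 88.9, 90.8 and 83.4 FPKM on the abdomen and 114, 134, 88.7 and 101 FPKM on the back, so that overlapping wound levels followed separate unwounded levels (difference 1.46, adjusted p = 0.0505). Abcc3 changed by 0.24 on the abdomen and 1.24 on the back (difference 1.00, adjusted p = 0.0505). The kinase gene Tec, Xlr4a, an X-linked gene, and Hcar2, a receptor for hydroxybutyrate and niacin, had differences of 0.66, 1.32 and 1.04, each with an adjusted p of 0.0753.

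In the negative direction, Vgll2, a cofactor of muscle differentiation, measured 7.88 to 20.6 FPKM in unwounded back and 1.25 to 3.29 FPKM in back wounds, and 0.15 to 1.98 FPKM and 0.72 to 1.55 FPKM on the abdomen (difference -2.38, adjusted p = 0.0505). Asb2, a ubiquitin ligase subunit of muscle, Rilpl1, a protein of ciliary transport, Padi2, a peptidylarginine deiminase, and Mup20, a major urinary protein, had differences of -1.62, -1.15, -1.68 and -1.58, each with an adjusted p of 0.0753. Mup20 belongs to a family of near-identical copies, so its reads are uncertain. The 44 skeletal muscle genes summed to 26549, 1295, 5100 and 25738 FPKM in unwounded abdomen 1 to 4 and to 23039 to 36393 FPKM in unwounded back, so abdomen mice 2 and 3 were low. The part of muscle content in these differences was not tested.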

How the data were processed

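RNA was sequenced from whole skin or wound tissue. Per the labels and the study's methods, the authors' pipeline used HISAT2, Bowtie2 (2.2.5) and RSEM (1.2.12) on mm10. The deposited values used here are FPKM per gene, normalized by the authors for transcript length and mapped fragments, for 18368 genes in 24 libraries. The authors' table of their own fold changes and adjusted p-values for 9 comparisons was not used. Depth is unknown, and no count model was run.

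Each fit used log2(FPKM + 0.5) of the genes reaching 0.5 FPKM in 4 or more of its libraries, with limma 3.58.1 (R 4.3.3), trended and robust moderation, two-sided. Wound sites were compared within the 12 wound libraries, unwounded sites likewise, and the difference of wound effects over all 24 libraries with a term for mouse. The labels give both libraries of a mouse 1 number, and their deviations from group means correlated at -0.03 to 0.53 (abdomen) and 0.159 to 0.533 (back). The 4 libraries of a group are 4 mice.

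Members and lists were chosen with earlier results of these data known, so list counts are descriptions. Of 1175 list entries, 1153 matched the table. Genes named are the 10 largest called differences without overlap and the 5 smallest p in each direction, up to 3 called members per list and direction (the most abundant member in lists without a call, of which the text gives some), the 5 smallest p of the wound-effect test in each direction, and genes the study discussed. Alternatives covered pseudocounts of 0.1 and 1, no filter or 1 FPKM, median-ratio and quantile scaling, plain moderation, other library sets, replicate terms and each library left out. The fits were tested on simulated data. Coordinates and promoter windows come from RefSeq tables for GRCm38.p6.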

Additional observations from a re-analysis of the deposited data

Results flagged for a closer look

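For 10 of 231 combinations of gene and group examined, 1 of the 4 libraries stood far from the other 3, and chance gives about 1 in 20. In abdomen wound 1 these were Crabp1 (127.5 FPKM), Tnc (124.8 FPKM) and Timp1 (239.7 FPKM), all above the other abdomen wounds. Abdomen wound 3 stood apart for Awat1 (176.5 FPKM), Cidea (139.7 FPKM) and Pcna (106.1 FPKM), and abdomen wound 4 for Col1a1 (3383 FPKM), again above the rest. Back wound 3 was high for Ptx3 (25.68 FPKM) and Wnt5a (7.71 FPKM) and low for Wnt2 (2.71 FPKM). Ptx3, Awat1 and Cidea were called between the sites, and in each the other 3 libraries of that group also lay outside the range of the other site.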

How the results depend on the processing

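None of the 51 named genes called between wounds changed sign in 508 refits under other settings (397 kept the call) or in 404 with 1 library left out (206 kept it). Where groups do not overlap, as in nearly all called genes, leaving out 1 library or changing the pseudocount cannot reverse the sign. Only the kept calls are therefore informative. The 178 calls between wounds became 106 without trended and robust moderation, 80 with only the 8 back and abdomen libraries, 64 with all 24 libraries, and 4 with abdomen wound 1 as the only abdomen library, a setting chosen after seeing the data that leaves 1 arm with 1 library, assumed to vary like the other groups, and so does not bear on the libraries left out. Leaving out 1 library gave 22 to 285. Back and abdomen mice share numbers and not animals: same-numbered wound libraries had deviations correlated at -0.173 to 0.137, 1 of 4 best with its own number, and the replicate block left 28 calls. In unwounded skin the 373 calls became 209 under median-ratio scaling, 1503 with all 24 libraries and 206 with the replicate block, and 109 to 543 with 1 mouse left out. Quantile normalization gave 96 higher and 113 lower between wounds, and 78 higher and 190 lower between unwounded sites. The 0 calls of the wound-effect test became 3 with a pseudocount of 1, 3 with a filter of 1 FPKM, 1 with plain moderation, 1 with no replicate block, and 0 to 597 with 1 mouse left out. Fits without 1 library have fewer samples, and the cause of the other shifts was not tested. Depth is unknown, so no detection limit can be given for values near 0 FPKM.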

Other observations

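Some transcripts differed between animals within a site. Hbb-b1, a beta globin, measured 0.32, 243, 662 and 0.13 FPKM in abdomen wounds 1 to 4 and 0, 188, 380.1 and 0.13 FPKM in unwounded skin of the same mice, against 189 to 509 FPKM in back wounds, while the alpha globin Hba-a1 measured 706 to 1013 FPKM in abdomen wounds and 406 to 2209 FPKM in back wounds. The low values of Hbb-b1 fell in both libraries of abdomen mice 1 and 4. Stfa1, a stefin of neutrophils, measured 2.14, 2.12, 321 and 123 FPKM in abdomen wounds and 0.77 to 1.82 FPKM in back wounds, and its paralogue Stfa2 63.4 to 244 FPKM and 118 to 204 FPKM. Both families hold near-identical copies, so their reads are uncertain. Mpo, myeloperoxidase of neutrophil granules, measured 10.2, 17.4, 23.4 and 14.8 FPKM in abdomen wounds and 4.52, 5.91, 3.74 and 7.61 FPKM in back wounds (-1.50, SE 0.34, adjusted p = 0.0595), the opposite order to Mmp8, and was lower in unwounded back (-1.72, adjusted p = 0.00148). Sln, sarcolipin of muscle, measured 68, 102, 135 and 153 FPKM in abdomen wounds and 16.8, 34.5, 31 and 36.4 FPKM in back wounds, without overlap and without passing the test (-1.92, SE 0.55, adjusted p = 0.11). These genes were chosen after their values were seen.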
